A study of Mus musculus with 6 samples.

Results

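Voltage-gated calcium, sodium and potassium channel genes were followed in RNA from the lungs of RPM mice. The genes were taken by symbol, as all calcium channel subunits named Cacna1, Cacna2d, Cacnb or Cacng, all sodium channel subunits named Scn with a number and a or b, and all potassium channel subunits named Kcn. The symbols gathered 128 of the 19639 genes in the table. Of these, 89 were counted in voltage-gated families, with the accessory subunits counted in, and 39 in other potassium channel families that share the Kcn stem, namely inward rectifiers, 2-pore-domain channels, channels opened by calcium or sodium, and BK channel beta subunits. The split is by symbol and does not mean that no channel among the 39 responds to voltage. Channels with at least 1 CPM (reads of the gene scaled to the library's depth, here with TMM scaling) in at least 2 of the 6 libraries are reported, which left 93 of the 128, against 15462 of all 19639 genes. Just inside this limit, Kcnd2, Kcnj9 and Kcnj5 each had 1.10 CPM in their second-highest library. Just outside it were Kcng1 with 0.965, Kcna6 with 0.951 and Kcnt2 with 0.903 CPM. The other 35 genes never exceeded 59 counts in a library. No reported channel met the limit in shThoc1 libraries alone, 8 met it through shControl libraries alone, and 85 met it with libraries of both groups.

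Voltage-gated channels open when the membrane depolarises. Sodium channels carry the upstroke of the action potential, potassium channels end it and set the resting potential, and calcium channels turn it into calcium entry, which triggers secretion in neurons and neuroendocrine cells and contraction in muscle. Small cell lung cancer is a neuroendocrine tumour whose cells are known to be electrically excitable. A lung also holds other cells with channels of their own, among them endothelium, the smooth muscle of airways and vessels, epithelium, immune cells, and heart muscle around the large pulmonary veins of mice. The 93 channels were therefore grouped by a cell type each is known from: 44 neuroendocrine and neuronal, 5 endothelial, 10 smooth muscle and pericyte, 10 cardiac and skeletal muscle, 5 epithelial, 2 immune, and 17 in none of these lists. Each channel has a single list, though several are known from other cell types too, and another choice would move the medians of the short lists. A channel's list rests on background knowledge and does not say in which cell of these lungs it was expressed. The lists were drawn up with earlier results of these data known, so their counts and medians only describe these libraries.

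The libraries came from 3 lungs labelled as infected with lentivirus carrying a hairpin against Thoc1 (shThoc1) and 3 labelled with a control hairpin (shControl). Thoc1 is part of the THO complex, which couples transcription to the export of mRNA. RPM stands in this field for tumour mice lacking Rb1 and Trp53 that overexpress Myc, so both groups would carry these tumour alleles. The labels spell out neither the alleles nor the promoter behind them, and give no age, no tumour content, and no statement that the 3 lungs of a group were separate animals. The p-values therefore measure only the spread between these libraries, which may be technical, and the titles of shThoc1 replicates 2 and 3 share a number that may mark a shared source.

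Library totals ran from 9934583 counts in shThoc1 replicate 2 to 15025199 in shThoc1 replicate 1. Thoc1 had 53.3, 69.3 and 61.4 CPM in shThoc1 replicates 1, 2 and 3, against 85.5, 80.1 and 85.6 CPM in shControl replicates 1, 2 and 3. All shThoc1 values were lower, with a log2 fold change of -0.45 (SE 0.17) and an adjusted p of 0.304 in edgeR's quasi-likelihood test with Benjamini-Hochberg adjustment. Marker genes of the cell types differed widely within the groups. The summed level of 14 neuroendocrine markers was 109, 439 and 103 CPM in shThoc1 replicates 1 to 3, against 1500, 139 and 1443 CPM in shControl replicates 1 to 3, so shControl replicate 2 lay within the shThoc1 range. The 11 endothelial markers summed to 4771, 341 and 3752 CPM in the shThoc1 libraries, against 1374, 2422 and 1252 CPM in the shControl libraries, so shThoc1 replicate 2 was the lowest of all. The 6 proliferation markers summed to 60.8, 656 and 113 CPM in the shThoc1 libraries, against 1309, 570 and 1189 CPM in the shControl libraries. There shControl replicate 2 also lay within the shThoc1 range, though well above shThoc1 replicates 1 and 3. In bulk tissue, fewer cells of a type and less RNA per cell cannot be told apart.

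Of the 9 channels with a call in the authors' deposited table, 7 had promoter windows among those used here. Windows on a chromosome that was set aside were not used for the called channels. A called channel without a window here may therefore still have one. The 250 bases before the start site are shown for 5 of them, Kcnj3, Kcnip1, Kcna4, Cacng7 and Cacna2d1, all lower in shThoc1 and all highest in shControl replicates 1 and 3. They were picked with the windows in view, to show windows with and without the motif searched. The windows come from RefSeq, build GRCm38.p6, and run 5′ to 3′ on the gene's strand: chr2:55435720-55435969 on the plus strand for Kcnj3, chr11:33993194-33993443 on the minus strand for Kcnip1, chr2:107290339-107290588 on the plus strand for Kcna4, chr7:3332575-3332824 on the plus strand for Cacng7, and chr5:15934441-15934690 on the plus strand for Cacna2d1. Capitals mark an E-box, the hexamer bound by basic helix-loop-helix factors, in the form CAGCTG or in the form CAGATG, which reads CATCTG on the other strand.
Kcnj3: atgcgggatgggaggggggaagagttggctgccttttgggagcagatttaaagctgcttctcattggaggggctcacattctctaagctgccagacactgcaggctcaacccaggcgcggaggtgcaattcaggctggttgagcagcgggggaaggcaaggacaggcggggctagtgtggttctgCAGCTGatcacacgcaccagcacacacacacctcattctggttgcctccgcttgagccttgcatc
Kcnip1: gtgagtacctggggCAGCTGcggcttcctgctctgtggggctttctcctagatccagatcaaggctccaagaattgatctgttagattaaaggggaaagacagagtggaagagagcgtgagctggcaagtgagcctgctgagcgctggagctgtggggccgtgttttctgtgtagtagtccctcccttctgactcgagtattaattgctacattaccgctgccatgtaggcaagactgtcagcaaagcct
Kcna4: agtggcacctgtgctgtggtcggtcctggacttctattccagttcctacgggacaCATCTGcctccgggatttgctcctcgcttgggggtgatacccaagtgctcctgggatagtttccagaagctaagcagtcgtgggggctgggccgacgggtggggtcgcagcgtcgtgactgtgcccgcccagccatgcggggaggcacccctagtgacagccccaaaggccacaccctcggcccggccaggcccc
Cacng7: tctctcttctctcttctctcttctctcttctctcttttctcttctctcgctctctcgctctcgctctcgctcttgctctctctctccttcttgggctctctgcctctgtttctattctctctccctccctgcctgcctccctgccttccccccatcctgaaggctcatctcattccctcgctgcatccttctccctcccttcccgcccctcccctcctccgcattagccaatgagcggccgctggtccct
Cacna2d1: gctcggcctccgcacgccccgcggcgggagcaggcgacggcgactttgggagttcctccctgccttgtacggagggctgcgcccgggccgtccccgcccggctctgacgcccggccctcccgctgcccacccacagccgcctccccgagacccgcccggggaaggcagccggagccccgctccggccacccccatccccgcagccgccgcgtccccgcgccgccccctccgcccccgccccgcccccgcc
CAGCTG began 65 bases before the start site of Kcnj3 and 236 bases before that of Kcnip1. The Kcna4 window held CATCTG, beginning 195 bases before the start, and the windows of Cacng7 and Cacna2d1 held neither form. Kcnip1 had 3 windows in the table, each with 1 E-box of either form. Kcnk10 and Scn2a, the other called channels with windows used here, held neither form. Thus 3 of these 7 genes had an E-box of a form searched and 4 had neither. Other forms of the E-box were not searched or marked.

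Of the 93 reported channels, 68 had windows in the RefSeq table, 98 windows in all. Both strands were searched, each window was counted once per motif, and CAGCTG reads the same on both strands. CAGCTG stood in 21.4% of the channel windows and in 20.9% of the 43 windows of neuroendocrine and neuronal channels, against 13.0% of all 32851 windows in the table. CAGATG stood in 16.3% of channel windows and 14.0% of neuroendocrine and neuronal ones, against 14.4% of all. The left part of the element bound by the neuronal silencer REST (TTCAGCACC) was in 1 channel window, that of Kcnh6, and in 0.301% of all windows. Its right part (GGACAGCGC) was in 0 channel windows and 0.304% of all. Channel windows had a median of 58.8% G and C, and those of neuroendocrine and neuronal channels 62.0%, against 52.4% of all windows. These are counts of letters in short windows.

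In the fit with all 6 libraries no common direction stood out across the channels, and edgeR called none of them. Of the 85 reported channels with enough counts to be tested, 46 were below 0 in log2 fold change and 39 above, and the median was -0.17. Over all 15187 genes under the same limits, 48.0% were below 0 and the median was 0.03. With edgeR, 0 channels passed an adjusted p of 0.05 in either direction, and the share called was 0% of the 15287 genes tested in each direction. At an unadjusted p under 0.05, 10 channels were lower in shThoc1, where 9.24% of all genes were, and 3 were higher, where 6.93% were. The authors' deposited table called 8 channels lower, where it called 3.69% of its 16010 genes with an adjusted p, and 1 higher, where it called 2.04%. The groups did not overlap for 12 channels lower in shThoc1, against 10.6% of the 15462 genes at the same level, and for 2 channels higher in shThoc1, against 10.9%. Kcnip1, Kcna4 and Kcnv1, among these 12, met the level limit through shControl libraries alone. Kcnip1 and Kcna4 are also among the 8 calls in the authors' deposited table. The counts of 12 and 8 are therefore weighted by that limit.

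shThoc1 replicate 2 differed from the other shThoc1 libraries in most marker sums, and the fit without it called 146 genes lower and 112 higher, 0.933% and 0.716% of 15647 genes tested. Of the channels, 0 were then lower and 1 was higher, Scn7a, described with its values further on. The median log2 fold change of the 92 reported channels then tested was -0.65, against -0.055 over all genes at the same level. These are not the same members as the 85 tested with all libraries.

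**Figure D1:**
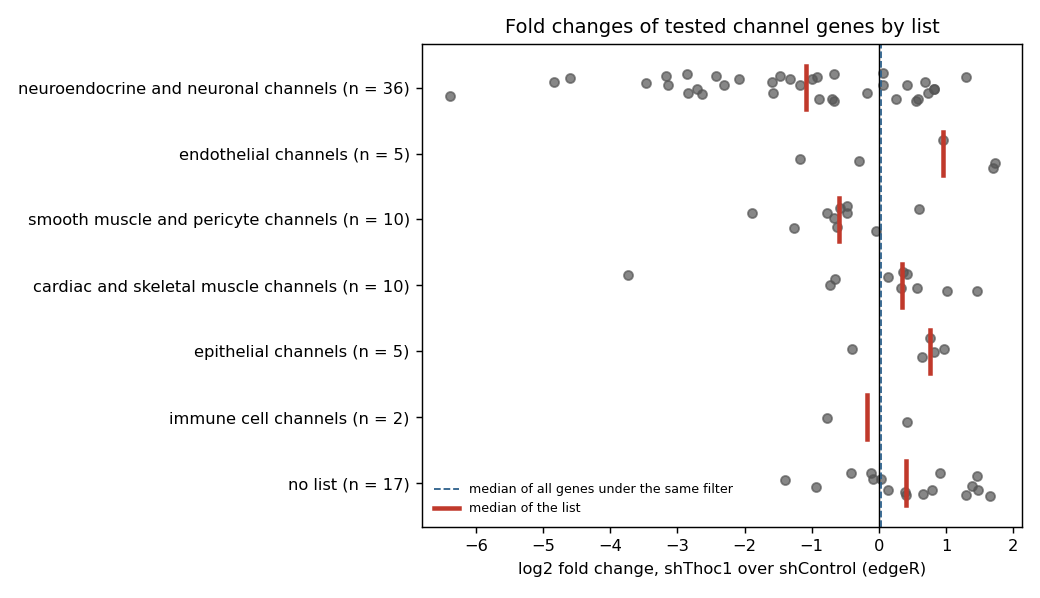
Log2 fold change of each tested channel, shThoc1 over shControl, on the x axis, with a row for each list of channels. Each dot is a gene, the red bar is the list's median and the dashed line the median of all genes under the same limits. The neuroendocrine and neuronal row reaches furthest left, with a median of -1.08, and the endothelial row has a median of 0.96.

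Neuroendocrine and neuronal channels mostly had lower fitted levels in shThoc1 lungs, by large factors in some genes, and the libraries of a group disagreed strongly. Of the 36 tested, 25 were below 0 in log2 fold change and 11 above, beside 48.0% of all genes below 0. Their median was -1.08, against 0.03 over all genes. In edgeR 7 had an unadjusted p under 0.05 and a lower level in shThoc1, beside 9.24% of all genes. With a higher level 0 had one, beside 6.93% of all genes. The authors' deposited table called 6 of the 44 reported members lower, beside 3.69% of its genes, and 0 higher. Among the 36 members that met the level limit in both groups it called 4 lower. All 8 channels that met the level limit through shControl alone were in this list, and 7 of them were not tested by edgeR, so a count over the members is weighted by that limit; among the 35 tested members that met the limit in both groups, 24 were below 0, with a median of -0.99. The list's median level, as log2(CPM + 0.5), was 0.45, 1.30 and 0.31 in shThoc1 replicates 1, 2 and 3, against 2.71, 1.22 and 2.44 in shControl replicates 1, 2 and 3. shControl replicate 2 thus lay below shThoc1 replicate 2. The 14 neuroendocrine markers were all below 0 in log2 fold change (median -2.90). Their summed level, like the channels, was highest in shControl replicates 1 and 3, though single markers differed from this order, and their part in the result was not tested.

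The presynaptic calcium channels were high in the same libraries as the markers. Cacna1b, the pore of the N-type channel that triggers transmitter release, had 0.417, 8.86 and 0.594 CPM in shThoc1 replicates 1 to 3, against 41.9, 2.15 and 16.6 CPM in shControl replicates 1 to 3. Cacna1a, the pore of the P/Q-type channel with the same role, had 0.972, 5.02 and 0.965 CPM in shThoc1 libraries, against 17.3, 2.23 and 14.5 CPM in shControl libraries. In both genes shControl replicate 2 was lower than shThoc1 replicate 2 and the groups overlapped. The log2 fold change was -2.64 (SE 1.50) for Cacna1b and -2.30 (SE 1.01) for Cacna1a, with adjusted p of 0.393 and 0.321 in edgeR. Cacna1d, an L-type pore that opens at low voltage, did not follow this pattern, with 32.3, 7.68 and 28.0 CPM in shThoc1 libraries against 23.6, 22.6 and 18.9 CPM in shControl libraries and a log2 fold change of 0.06 (SE 0.52). The R-type pore Cacna1e and the T-type pore Cacna1i were highest in shThoc1 replicate 2, at 19.4 and 12.3 CPM, and had log2 fold changes of 0.69 (SE 0.60) and 1.30 (SE 1.26).

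Among the accessory calcium channel genes, Cacng7 stood out. It belongs to the gamma subunit relatives that in neurons act mainly on AMPA-type glutamate receptors. Cacng7 had 1.32, 2.36 and 1.56 CPM in shThoc1 replicates 1 to 3, against 23.9, 3.90 and 18.5 CPM in shControl replicates 1 to 3. All shThoc1 values were below all shControl values, although shControl replicate 2 was close to them. The log2 fold change was -3.14 (SE 0.73), with an adjusted p of 0.304 in edgeR and 0.00159 in the authors' deposited table, where it was called. Its relative Cacng4 had 0.208, 2.76 and 0.223 CPM in shThoc1 libraries, against 23.2, 0.0796 and 11.1 CPM in shControl libraries, with shControl replicate 2 the lowest of the 6. Cacng2, or stargazin, had 0, 0.0985 and 0 CPM in shThoc1 libraries, against 3.98, 0 and 1.17 CPM in shControl libraries, and was too low for the edgeR test. Cacna2d3, an alpha2delta subunit that helps carry calcium channels to the membrane, did not overlap between the groups: its highest shThoc1 value was 1.77 CPM, against a lowest shControl value of 1.83 CPM, and its log2 fold change was -2.43 (SE 1.07).

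Of the 4 reported neuronal sodium channel pores, Scn2a and Scn8a had both shControl replicates 1 and 3 above the other 4 libraries. Scn2a, which carries action potentials in axons, had 0.347, 1.67 and 0.594 CPM in shThoc1 replicates 1 to 3, against 10.8, 0.955 and 11.5 CPM in shControl replicates 1 to 3. Its log2 fold change was -3.16 (SE 1.08), and it was called lower in the authors' deposited table (adjusted p = 0.0384) and not in edgeR (adjusted p = 0.304), with shThoc1 replicate 2 above shControl replicate 2. Scn8a, the main sodium channel pore of the nodes of Ranvier, had 0.208, 8.67 and 0.371 CPM in shThoc1 libraries, against 33.4, 2.39 and 29.8 CPM in shControl libraries, with a log2 fold change of -2.85 (SE 1.60). The accessory subunit Scn3b had 86.7, 14.3 and 58.2 CPM in shThoc1 libraries, against 44.4, 14.5 and 31.1 CPM in shControl libraries. Scn3b was therefore lowest in replicate 2 of each group, and its log2 fold change was 0.82 (SE 0.70, adjusted p = 0.544 in edgeR). The pores Scn3a and Scn9a were also highest in shControl replicate 1, at 21.2 and 11.2 CPM, but shControl replicate 3 was below the highest shThoc1 library in each. Their log2 fold changes were -0.67 (SE 0.54) and -1.60 (SE 1.96), and that of the beta subunit Scn2b was 0.07 (SE 0.98).

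Kcnip1 and Kcna4, which both bear on the fast inactivating A-type potassium current, were at or near 0 in shThoc1 libraries. Kcnip1, a calcium-binding subunit of Kv4 channels, had 0.0694, 0.394 and 0 CPM in shThoc1 replicates 1 to 3, against 9.15, 2.07 and 26.5 CPM in shControl replicates 1 to 3. The groups did not overlap, the log2 fold change was -6.39 (SE 1.45), and the adjusted p was 0.304 in edgeR and 0.000151 in the authors' deposited table. Kcna4, the A-type pore Kv1.4, had 0 counts in all 3 shThoc1 libraries, against 1.33, 0.0796 and 4.02 CPM in shControl libraries, from 75 counts in all. Against a floor of 3 counts over the 3 shThoc1 libraries, 0.0789 CPM, the shControl mean of 1.81 CPM was at least 22.9-fold higher. That mean came mostly from shControl replicate 3, and shControl replicate 2, with 1 count, was itself near the floor. Kcnip1 and Kcna4 both met the level limit through shControl libraries alone, which favours genes lower in shThoc1. Kcna4 did not pass edgeR's filter and was called in the authors' deposited table (adjusted p = 0.0261).

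Other voltage-gated potassium channels of the list differed by unlike amounts and in both directions. Among the ether-a-go-go channels, Kcnh4 had a log2 fold change of -2.71 (SE 1.36) and Kcnh1 one of 0.74 (SE 0.61). Kcnh7, an ether-a-go-go channel of the Erg type, had 5.83, 6.70 and 6.53 CPM in shThoc1 libraries, against 20.3, 5.97 and 21.5 CPM in shControl libraries, with a log2 fold change of -1.32 (SE 0.51). shControl replicate 2 was again at the shThoc1 level. Kcna2, the axonal Kv1.2 pore, had 15.5, 24.0 and 12.7 CPM in shThoc1 libraries, against 8.73, 4.85 and 15.9 CPM in shControl libraries, and a log2 fold change of 0.82 (SE 0.50). None of these genes was called by edgeR or in the authors' table.

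Potassium channels that are not gated by voltage included channels whose groups did not overlap. Kcnk10, the 2-pore-domain channel TREK-2, which carries background potassium current, had 0.0694, 1.38 and 0.594 CPM in shThoc1 replicates 1 to 3, against 21.6, 6.605 and 28.9 CPM in shControl replicates 1 to 3. Its groups were well apart, the log2 fold change was -4.83 (SE 1.05), and it had the smallest adjusted p of the list in the authors' deposited table, 9.51e-05, against 0.304 in edgeR. Kcnn2, the calcium-activated SK2 channel that follows a burst with hyperpolarisation, had 0.903, 1.28 and 1.56 CPM in shThoc1 libraries, against 16.0, 2.865 and 8.26 CPM in shControl libraries. The groups did not overlap, the log2 fold change was -2.85 (SE 0.70), and the adjusted p was 0.304 in edgeR and 0.00555 in the authors' deposited table. Its relative Kcnn1 (SK1) also did not overlap, with 0.694, 1.18 and 1.41 CPM in shThoc1 libraries, against 3.63, 2.55 and 2.92 CPM in shControl libraries, and had an adjusted p of 0.0531 in the authors' deposited table.

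**Figure D2:**
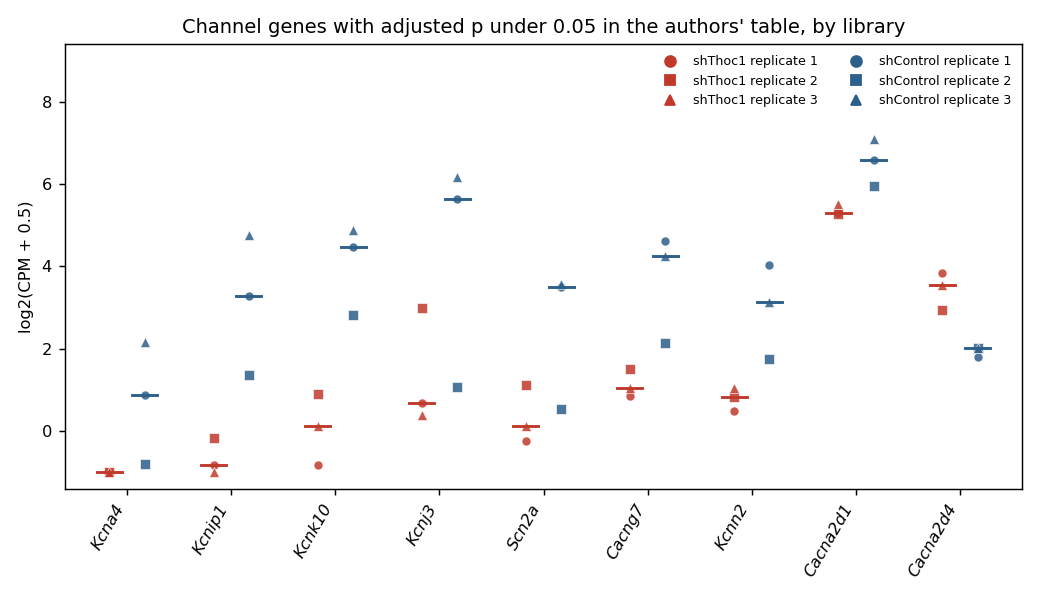
Level of the 9 channels with a call in the authors' deposited table, as log2(CPM + 0.5) on the y axis, by gene on the x axis. Red symbols are the 3 shThoc1 libraries, blue symbols the 3 shControl libraries, the shape gives the replicate and the bar the group's median. In the 7 neuroendocrine or cardiac genes on the left the blue square, shControl replicate 2, lies nearest the red symbols, and in Scn2a and Kcnj3 it overlaps them.

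The order of libraries was shared by many of these genes. shControl replicates 1 and 3 were both above the other 4 libraries in 29 of the 44 neuroendocrine and neuronal channels (65.9%), in 38 of all 93 channels (40.9%) and in 24.2% of all 15462 genes. The 8 channels that met the level limit through shControl alone are all among the 29, and without them the count was 21 of 36 (58.3%), against 23.4% of the 15059 genes that met the limit in both groups. This pattern was chosen after the values were seen and is given as a description. shControl replicate 2 was below both other shControl libraries in 40 of the 44, and shThoc1 replicate 2 was above both other shThoc1 libraries in 27. shThoc1 replicate 2 was above shControl replicate 2 in 27 of the 44. Without shThoc1 replicate 2 the list's median log2 fold change was -2.20 over the 43 members then tested, and -1.44 over the 36 members tested with all libraries. Other orders of libraries were met as well. shThoc1 replicates 1 and 3 were above the rest in 17.2% of channels against 20.5% of genes, and shThoc1 replicate 2 alone was the highest in 19.4% against 21.5%.

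**Figure D3:**
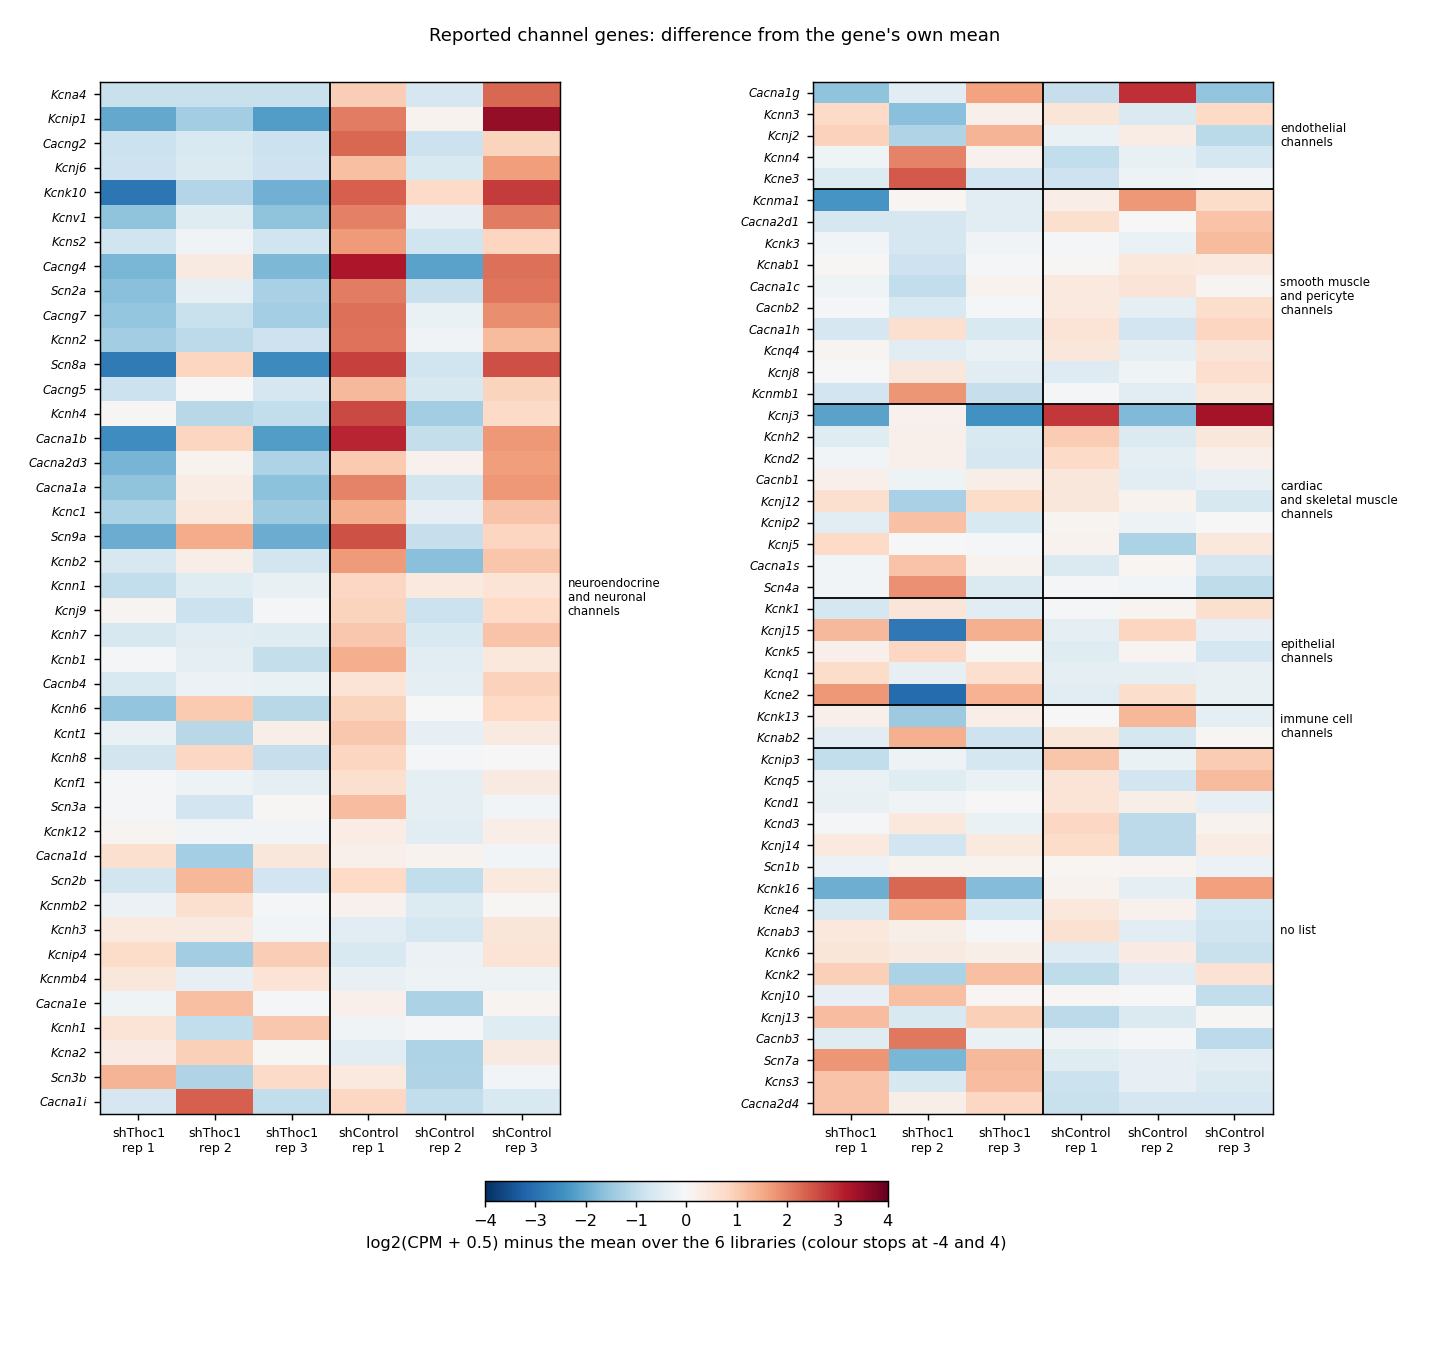
Level of reported channels in each of the 6 libraries, as log2(CPM + 0.5) minus the gene's mean over the libraries. The 3 shThoc1 columns stand left of the 3 shControl columns, and rows are grouped by list and sorted by the log2 fold change in the authors' deposited table. In the neuroendocrine and neuronal block shControl replicates 1 and 3 are red in most rows, while shControl replicate 2 and the shThoc1 columns are mostly pale or blue.

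Endothelial channels did not differ in a common direction. Of 5 tested, 2 were below 0 in log2 fold change and 3 above. The median was 0.96, and 0.094 without shThoc1 replicate 2. Kcnj2, the strong inward rectifier Kir2.1 that sets the resting potential of endothelium, had 41.8, 9.16 and 56.6 CPM in shThoc1 replicates 1 to 3, against 18.4, 26.9 and 10.2 CPM in shControl replicates 1 to 3. It was high in shThoc1 replicates 1 and 3 and lowest in shThoc1 replicate 2, as the endothelial marker sum was, and its log2 fold change was 0.96 (SE 0.69, adjusted p = 0.480 in edgeR). Of the 11 endothelial markers 10 were above 0 in log2 fold change (median 0.80), and their part in the result was not tested.

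Kcnn4, the calcium-activated channel KCa3.1 of endothelium and also of activated T cells, had 9.58, 45.2 and 12.3 CPM in shThoc1 libraries, against 5.31, 8.75 and 6.51 CPM in shControl libraries. All shThoc1 values were higher and the log2 fold change was 1.70 (SE 0.66), with an unadjusted p of 0.0411 and an adjusted p of 0.304 in edgeR. Its highest library, shThoc1 replicate 2, was the lowest in endothelial markers and the highest in the 6 T cell markers, which summed to 68.7, 735 and 76.2 CPM in shThoc1 libraries, against 48.5, 33.7 and 27.9 CPM in shControl libraries. The part of T cells in this value was not tested. Kcne3, a subunit that holds KCNQ1 channels open, was also highest there, at 17.3 CPM against 1.33 to 2.49 CPM in shControl libraries, while the other shThoc1 libraries had 1.74 and 1.41 CPM. The SK3 channel Kcnn3 had a log2 fold change of -0.30 (SE 0.74) and the T-type pore Cacna1g -1.17 (SE 1.75). Cacna1g ran from 0.208 to 6.09 CPM in shThoc1 libraries and from 0.219 to 15.8 CPM in shControl libraries.

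Of the 10 smooth muscle and pericyte channels tested, 9 were below 0 in log2 fold change, beside 48.0% of all genes. In edgeR 1 had an unadjusted p under 0.05 and a lower level in shThoc1, beside 9.24% of all genes. The groups did not overlap for 3, all lower in shThoc1, beside 10.6% of all genes at the same level. The median was -0.60, and -0.58 without shThoc1 replicate 2. Kcns3, known from pulmonary artery muscle but placed in no list, went the other way, with a log2 fold change of 1.47 (SE 0.57). Cacna2d1, the alpha2delta subunit of L-type calcium channels in muscle, had 38.8, 38.1 and 45.1 CPM in shThoc1 replicates 1 to 3, against 95.9, 61.8 and 136 CPM in shControl replicates 1 to 3. The groups were apart and the shThoc1 libraries close together. The log2 fold change was -1.27 (SE 0.31), with an adjusted p of 0.304 in edgeR and 0.0179 in the authors' deposited table. This was the 1 call of the list there, beside 3.69% of all genes called lower. Cacna2d1 is also known from neurons, and it too was highest in shControl replicates 1 and 3.

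Cacna1c, the L-type pore through which smooth muscle takes up calcium, had 31.2, 17.6 and 38.6 CPM in shThoc1 libraries, against 46.2, 50.1 and 38.3 CPM in shControl libraries, a log2 fold change of -0.62 (SE 0.32). The groups overlapped by the narrow margin of shThoc1 replicate 3 over shControl replicate 3. Kcnma1, the pore of the BK channel that opposes contraction, had 0.208, 3.35 and 2.15 CPM in shThoc1 libraries, against 3.84, 11.6 and 5.56 CPM in shControl libraries, with no overlap and a log2 fold change of -1.89 (SE 0.95). Kcnmb1, the beta subunit of that channel in smooth muscle, was the member above 0, at 3.75, 24.1 and 3.34 CPM in shThoc1 libraries, against 6.43, 4.93 and 9.21 CPM in shControl libraries. Kcnk3, the TASK-1 channel that sets the resting potential of pulmonary artery muscle, had a log2 fold change of -0.78 (SE 0.47), with 52.4 CPM in shControl replicate 3 and 13.5 to 20.3 CPM in the other 5 libraries. The T-type pore Cacna1h had a log2 fold change of -0.48 (SE 0.59) and the Kv beta subunit Kcnab1 -0.66 (SE 0.46). Kcnab1 was apart between the groups by the margin of 1.667 CPM in shThoc1 replicate 1 against 1.677 CPM in shControl replicate 1, from 24 counts in each. The 9 smooth muscle and pericyte markers did not share this direction: 4 were below 0 and 5 above, with sums of 754 to 1444 CPM in shThoc1 libraries and 806 to 1425 CPM in shControl libraries.

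Of the 10 cardiac and skeletal muscle channels, 3 were below 0 in log2 fold change and 7 above, and the median was 0.34. Kcnj3 was far below the others. It encodes Kir3.1, the potassium channel through which the vagus slows the atria, and is also expressed in neurons. Kcnj3 had 1.11, 7.39 and 0.817 CPM in shThoc1 replicates 1 to 3, against 49.3, 1.59 and 71.2 CPM in shControl replicates 1 to 3. Its levels followed the neuroendocrine channels, high in shControl replicates 1 and 3, and overlapped between the groups through shControl replicate 2. The log2 fold change was -3.73 (SE 1.49), with an adjusted p of 0.307 in edgeR and 0.0452 in the authors' deposited table. The 9 cardiac markers summed to 424, 313 and 269 CPM in the shThoc1 libraries, against 100.1, 32.9 and 572 CPM in the shControl libraries, so they did not share Kcnj3's order.

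The other members of the list differed less. Of the 7 above 0, Scn4a had the largest log2 fold change at 1.47 (SE 0.95), then Cacna1s at 1.02 (SE 0.54). Both genes were highest in shThoc1 replicate 2. Kcnh2, the Erg channel that repolarises the ventricle, had 5.28, 8.76 and 4.83 CPM in shThoc1 libraries, against 15.8, 4.85 and 10.46 CPM in shControl libraries, with shControl replicate 2 again at the shThoc1 level and a log2 fold change of -0.72 (SE 0.51). Cacnb1, the beta subunit of the skeletal muscle calcium channel, had a log2 fold change of 0.14 (SE 0.35). Of the 6 skeletal muscle markers, Acta1 and Ckm were at 0 in at least 1 library, and the list summed to 6.53 to 30.9 CPM in shThoc1 libraries and 1.51 to 16.4 CPM in shControl libraries.

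Of 5 epithelial channels 4 were above 0 in log2 fold change, and the median was 0.77. Kcnj15, the inward rectifier Kir4.2, had 134, 7.09 and 146 CPM in shThoc1 replicates 1 to 3, against 41.0, 99.0 and 43.1 CPM in shControl replicates 1 to 3. Kcnq1, a pore that recycles potassium during epithelial transport, had 22.4, 10.54 and 21.2 CPM in shThoc1 libraries, against 9.92, 10.03 and 10.8 CPM in shControl libraries. Its partner subunit Kcne2 had 27.5, 0.492 and 21.7 CPM in shThoc1 libraries, against 5.73, 13.1 and 6.43 CPM in shControl libraries. All 3 were highest in shThoc1 replicates 1 and 3. The 7 alveolar and airway markers summed to 39817, 9371 and 34388 CPM in shThoc1 libraries, against 11869, 21740 and 20111 CPM in shControl libraries, and their part was not tested. The log2 fold changes were 0.65 (SE 0.99) for Kcnj15, 0.82 (SE 0.34) for Kcnq1 and 0.98 (SE 1.15) for Kcne2, with an adjusted p of 0.310 for Kcnq1 in edgeR. Kcnk1, the 2-pore-domain channel TWIK-1, had a log2 fold change of -0.39 (SE 0.38).

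The 2 immune channels were the Kv beta subunit Kcnab2 and the microglial and macrophage 2-pore-domain channel Kcnk13. Kcnab2 was highest in shThoc1 replicate 2, at 10.9 CPM, and had a log2 fold change of 0.41 (SE 0.77), and Kcnk13 was lowest there, at 0.591 CPM, with a log2 fold change of -0.77 (SE 0.79). The T cell channel Kcna3 was below the level limit.

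**Figure D4:**
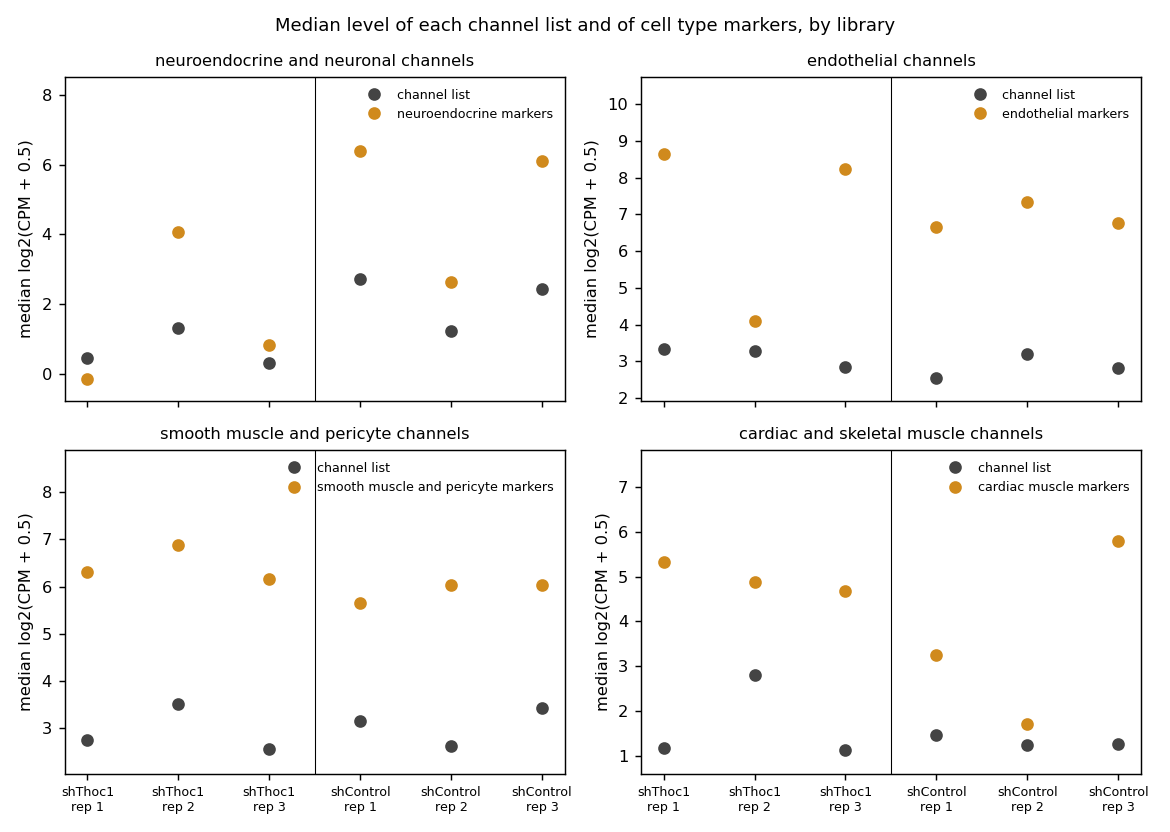
Median level of 4 channel lists (dark dots) and of the markers of the matching cell type (orange dots), as median log2(CPM + 0.5) on the y axis, with the 3 shThoc1 libraries left of the 3 shControl libraries. Neuroendocrine channels and markers are both high in shControl replicates 1 and 3, while the median of the endothelial channels stays between 2.54 and 3.33 as that of the endothelial markers spans 4.10 to 8.63.

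Of the 17 channels in no list, 5 were below 0 in log2 fold change and 12 above. The authors' deposited table called 1 of them, as higher, beside 2.04% of its genes. Cacna2d4, an alpha2delta subunit best known from photoreceptors, had 13.9, 7.19 and 11.1 CPM in shThoc1 replicates 1 to 3, against 3.00, 3.58 and 3.58 CPM in shControl replicates 1 to 3. All shThoc1 values were above all shControl values. The log2 fold change was 1.66 (SE 0.36), and the adjusted p was 0.304 in edgeR and 0.00231 in the authors' deposited table. It was the 1 channel called higher there. The related subunits Cacna2d1 and Cacna2d3 were both lower in shThoc1 without overlap, so the alpha2delta family held differences in both directions.

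Scn7a, the sodium-sensing channel Nax, had the highest mean level per kilobase of exon of all channels. Scn7a had 406, 32.9 and 292 CPM in shThoc1 libraries, against 83.6, 94.1 and 88.2 CPM in shControl libraries. shThoc1 replicates 1 and 3 were above every shControl library and shThoc1 replicate 2 below, so the log2 fold change of 1.46 had an SE of 0.81 and an adjusted p of 0.385 in edgeR. Without shThoc1 replicate 2, over 2 shThoc1 and 3 shControl libraries, it was 1.91 (SE 0.20), with an adjusted p of 0.0488 in edgeR. Scn7a falls outside the rule for named genes and was chosen after its values were seen. Kcns3, a silent subunit known from pulmonary artery muscle, had 15.2, 4.04 and 16.2 CPM in shThoc1 libraries, against 3.35, 5.17 and 4.24 CPM in shControl libraries, with a log2 fold change of 1.47 (SE 0.57). Kcnj13, the weakly rectifying Kir7.1, had 9.999, 2.46 and 8.17 CPM in shThoc1 libraries, against 1.68, 2.55 and 4.17 CPM in shControl libraries, with a log2 fold change of 1.30 (SE 0.64). All 3 genes were high in shThoc1 replicates 1 and 3, the libraries richest in endothelial and alveolar markers, whose part was not tested.

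Levels can be compared between genes only per length of transcript. Divided by the kilobases of merged exons, Scn7a stood first of the 93, at 33.2 ± 26.1 CPM per kilobase in shThoc1 and 12.1 ± 0.718 in shControl libraries (SD, n = 3 each). Kcnk1 followed with 15.3 ± 7.12 CPM per kilobase in shThoc1 and 20.2 ± 5.37 in shControl, and Kcnj15 with 16.6 ± 13.3 in shThoc1 and 10.6 ± 5.70 in shControl. Cacnb3, a beta subunit found with many calcium channels, was in place 4 through a single library, shThoc1 replicate 2, at 31.3 CPM per kilobase, while its other values ran from 3.31 to 6.64. Scn3b, of the neuroendocrine and neuronal list, was in place 5 with 11.7 ± 8.07 CPM per kilobase in shThoc1 and 6.63 ± 3.32 in shControl. From place 1 to place 10, the SD within shThoc1 libraries was in most genes larger than the step to the next gene.

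**Figure D5:**
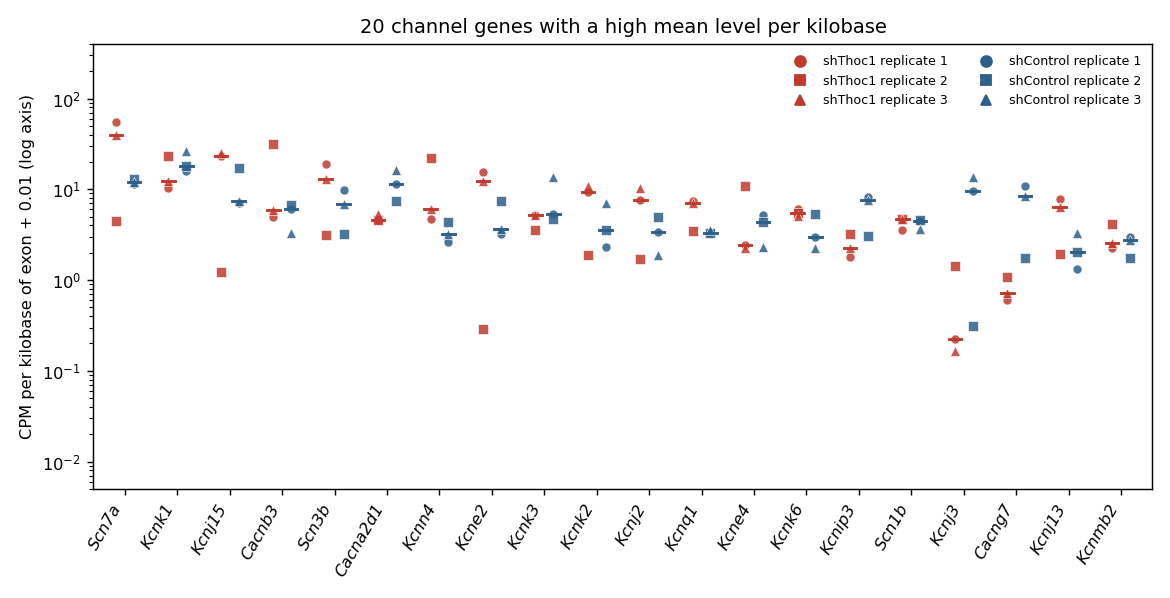
CPM per kilobase of exon in each library, plus 0.01, on a logarithmic y axis, for 20 of the channels with the highest means on the x axis. Red symbols are shThoc1 and blue symbols shControl libraries, shapes give the replicate and bars the median. Scn7a, Kcnj15 and Kcne2 have their red square, shThoc1 replicate 2, far below the other red symbols, and Kcnj3 has its blue square, shControl replicate 2, far below the other blue symbols.

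Partners of the channels and the ion pumps that restore the gradients were taken from a list of 48 genes, of which 47 were in the table and 42 were reported and tested. Of these, 30 were below 0 in log2 fold change and 12 above (median -0.88), and 0 passed an adjusted p of 0.05 in edgeR. The authors' deposited table called 5 lower, beside 3.69% of its genes, and 1 higher, beside 2.04%. The lower ones included Ank2 and Sptbn4, which anchor channels to the cytoskeleton, the sodium leak channel Nalcn and the calcium channel inhibitor Rem2. Sptbn4 and Rem2 met the level limit through shControl libraries alone, so the count of lower calls is weighted by that limit. Ank2 averaged 8.07 ± 7.62 CPM in shThoc1 and 79.5 ± 54.1 CPM in shControl libraries (SD, n = 3 each), where shControl replicate 2 had 18.7 CPM. Nalcn averaged 2.93 ± 0.364 CPM in shThoc1 and 19.1 ± 14.1 CPM in shControl libraries (SD, n = 3 each), where shControl replicate 2 had 2.785 CPM. The log2 fold change was -3.31 (SE 0.98) for Ank2 and -2.70 (SE 0.84) for Nalcn, with an adjusted p of 0.304 for each in edgeR, and of 0.00977 for Ank2 and 0.0246 for Nalcn in the authors' deposited table.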

How the data were processed

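RNA was measured by sequencing in 6 lung samples, 3 shThoc1 and 3 shControl. The authors deposited 1 table of raw counts per gene and library. The authors' log2 fold changes, p-values and adjusted p-values stand beside the counts, under column names of DESeq2 per the file headers. The genome build was GRCm39 per the submitters' processing notes. Aligner, counter and use of strand were not given in the sources read. Reads of overlapping genes on opposite strands may therefore be mixed. The deposited mean normalized signal over all libraries and the test score were not used.

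The 15287 genes that passed filterByExpr entered edgeR 4.0.16 (R 4.3.3) and its quasi-likelihood F-test (TMM scaling, robust estimates, Benjamini-Hochberg adjustment), and 4352 genes were not tested. SEs come from the F statistic, and CPM values use TMM scaling. The biological coefficient of variation was 0.480 in common over genes. The code was tested on simulated data. Members and lists were chosen with earlier results of these data known. Named genes were, by rule, the 8 highest in mean CPM among neuroendocrine and neuronal channels and the 4 highest in each other list, the 5 with the smallest p in each direction, and any channel called by edgeR or in the authors' table. Any other gene was chosen with its values in view. A few genes that the rule names are not reported here, singly or in figures, and stay in the counts and medians. Replicate numbers follow the order of the records and pair nothing. Promoters were read from a RefSeq table of build GRCm38.p6, and exon lengths from GENCODE M21 on GRCm38. Both builds differ from the files' build. Alternatives were DESeq2 1.42.0, DESeq2 size factors within edgeR, testing with no filter, requiring 1 CPM in 3 libraries, leaving out each replicate, and summing shThoc1 replicates 2 and 3.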

Additional observations from a re-analysis of the deposited data

How the results depend on the processing

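With DESeq2, 8 channels were called lower and 1 higher, against 0 with edgeR, and these were the same 8 and 1 as in the authors' table. At an unadjusted p under 0.05, edgeR had 10 lower and 3 higher, beside 9.24% and 6.93% of all genes. With DESeq2 size factors, with no filter, with the stricter filter and with shThoc1 replicates 2 and 3 summed, edgeR called 0 channels in either direction. Leaving out 1 library at a time, it called 0 lower and 0 to 1 higher, the 1 being Scn7a without shThoc1 replicate 2. In these fits the median log2 fold change ran from -2.20 (without shThoc1 replicate 2) to -0.73 (without shControl replicate 1) for neuroendocrine and neuronal channels, and it was -1.83 without shControl replicate 2. These fits do not test the same members: without shThoc1 replicate 2 there were 43, and over the 36 of the fit with all libraries the median was -1.44. For endothelial channels it ran from 0.094 (without shThoc1 replicate 2) to 1.92 (without shControl replicate 2), and it was 0.44 without shThoc1 replicate 3. For smooth muscle and pericyte channels it ran from -0.76 to -0.32, and for cardiac and skeletal muscle channels from 0.08 to 0.41.

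Of the named genes, 6 changed sign when a library was left out, none with a call: Cacna1d ran from -0.31 to 0.41, Kcnn3 from -0.90 to 0.094, Kcne3 from -0.44 to 2.31, Cacnb1 from -0.031 to 0.43, Kcnab2 from -0.80 to 0.89 and Kcnk13 from -1.10 to 0.0014. The cause was not tested. Kcna4 did not pass edgeR's filter and was fitted in DESeq2. No paired analysis was possible because the labels give the libraries no shared replicate numbers. At 9934583 to 15025199 counts per library, 35 channels stayed under the level limit and 8 of the 93 reported had too few counts for edgeR's test.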
